A study of Mus musculus with 16 samples.

Results

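Megakaryocyte and platelet genes were followed through sorted erythroblasts of the mouse foetal liver. The group held 9 genes named by symbol (Itga2b, Itgb3, Gp9, Gp1bb, F2rl2, Pf4, Alox12, Plek and Rbpms2), and each matched exactly 1 of the 55416 genes in the read-count table. The genes were chosen by name, as genes of this lineage, with their read counts in these libraries and earlier comparisons already known. Which contrast weighed in the choice was not recorded, so the tests below describe the libraries and are not independent support for any pattern.

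The libraries came from 8 E13.5 embryos on a C57BL/6J background, of which 4 were wild type (WT, Nprl3+/+, embryos 0, 1, 5 and 8), 2 heterozygous (Het, Nprl3+/-, embryos 3 and 4) and 2 knockout (KO, Nprl3-/-, embryos 2 and 9). The targeted allele is constitutive: it lacks the promoter of Nprl3, a component of the GATOR1 complex that restrains mTORC1, and it leaves in place the α-globin enhancers that lie inside the gene. From each embryo, S1 cells (the less mature gate) and S3 cells (basophilic erythroblasts) were sorted by Ter119 and CD71, and 1 amplified poly(A) library was made per gate, giving 16 libraries. WT embryos 0 and 8, both Het embryos and KO embryo 9 were male, and WT embryos 1 and 5 and KO embryo 2 were female, so that no Het female was measured. Some label fields also name an embryonic stem cell line, whereas the titles name the sorted cells. The libraries held 23331156 to 36035368 counts at S1 and 20666044 to 37609502 at S3.

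Megakaryocytes arise from a progenitor that they share with erythroid cells, and both lineages rely on GATA1, NFE2 and GFI1B. Platelets bud from mature megakaryocytes and carry a fibrinogen receptor made of integrins αIIb (Itga2b) and β3 (Itgb3), a von Willebrand factor receptor whose complex includes GPIX (Gp9) and GPIbβ (Gp1bb), thrombin-responsive receptors of the PAR family, and granules filled with chemokines such as platelet factor 4 (Pf4). The foetal liver is a site of both erythropoiesis and megakaryopoiesis.

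As a check of the genotype labels, Nprl3 reached 22.6 to 32.6 CPM (the usual count scaled to library depth, here with TMM factors over all 16 libraries) in the 4 WT S1 libraries, 12.7 and 12.98 in the Het libraries, and 0.319 and 0.676 in the KO libraries. At S3 it stood at 146 to 204 CPM in WT, 118 and 146 in Het, and 107 and 111 in KO. The KO libraries were thus the lowest at both gates, by a wide margin at S1 and a narrow one at S3. The study's authors describe spliced, polyadenylated RNAs that begin at the enhancers inside Nprl3 and not at its promoter, and a count per gene takes these in, so that the S3 level is not a measure of RNA from the deleted promoter alone.

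Against the erythroid genes of the same libraries, the members were minor transcripts. A list of 12 erythroid markers summed to between 153346 and 201008 CPM in the S3 libraries and to between 1710 and 9532 CPM in the S1 libraries. The 9 members together summed to between 43.1 and 103 CPM at S3 and to between 19.1 and 86.8 CPM at S1. These are bulk libraries, so that fewer cells of a type and less RNA per cell cannot be told apart.

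Of the 9 members, 8 passed the filter on low counts in every comparison, and Gp1bb did not. Gp1bb, the β chain of the GPIb complex (chromosome 16, bases 18439067 to 18441153, minus strand, mm39), had 1 count in 1 library and 0 in the other 15. On the annotation, 1902 of its 2087 exonic bases (91.1%) also belong to Septin5 on the same strand. With 867 bases also shared with Gm49601, only 149 exonic bases were its own. The authors' counter leaves out by default a read that overlaps more than 1 gene, and Septin5 itself totalled 2 counts over all libraries. A count of 0 allows up to 3 counts, or 0.0616 to 0.207 CPM by library, and this limit covers counting error only and only reads that could be assigned to Gp1bb alone. The level of Gp1bb was therefore not measured by these counts.

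The promoters of 3 members are shown as examples. F2rl2 and Pf4 are among the 7 members for which WT embryo 0 and KO embryo 9 were the 2 highest S3 libraries. Gp9 is the exception, as described below. These are reference sequences and not those of the embryos, and a link between them and the levels was not tested. Each line gives 120 bases on the plus strand, 5′ to 3′, ending upstream of the annotated exons. Capitals mark a GATA word (AGATAA or AGATAG or TGATAA or TGATAG), an ETS word (AGGAAG or CGGAAG) or a RUNX word (TGTGGT or TGCGGT) on either strand. The sequences are from RefSeq (promoter table of GRCm38.p6), and each window matched the GRCm39 chromosome exactly once, at chr13:95833241-95833360 for F2rl2, chr5:90920174-90920293 for Pf4 and chr6:87754932-87755051 for Gp9.
F2rl2: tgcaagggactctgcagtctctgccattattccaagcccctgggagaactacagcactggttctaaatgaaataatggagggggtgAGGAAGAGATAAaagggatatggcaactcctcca
Pf4: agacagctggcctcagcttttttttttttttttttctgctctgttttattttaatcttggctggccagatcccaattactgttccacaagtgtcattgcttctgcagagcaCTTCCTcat
Gp9: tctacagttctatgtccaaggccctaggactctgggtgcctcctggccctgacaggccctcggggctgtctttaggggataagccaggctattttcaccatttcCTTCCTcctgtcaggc
In the F2rl2 promoter the ETS word AGGAAG ran directly into the GATA word AGATAA, with no base shared between them, beginning 101 bases before the RefSeq start. In the Pf4 and Gp9 promoters the ETS word lay on the minus strand, beginning 9 and 16 bases before the start. Windows from 250 bases before to 50 bases after the start were found for 8 of the 9 members (not Itgb3). An ETS word was in 6 of these 8 windows against 46.5% of all 32851 windows in the table, a GATA word in 3 of 8 against 29.8%, and a RUNX word in 1 of 8 against 22.4%. Alox12 and Plek held none of these words in their windows. These are matches of letters and not sites of binding.

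Levels were compared between genes only as CPM per kilobase of exon. In WT S1 libraries Pf4 was the highest member at 25.4 ± 13.3 CPM per kb (SD, n = 4) and Gp9 the next at 5.89 ± 2.24. Plek at 1.86 ± 0.297 and Itga2b at 1.82 ± 0.195 had overlapping ranges, followed by F2rl2 at 1.23 ± 0.324 and Rbpms2 at 0.838 ± 0.124, whose ranges also overlapped. Itgb3 at 0.464 ± 0.215 and Alox12 at 0.331 ± 0.122 were the lowest and did not separate from each other. In WT S3 libraries Gp9 took the first place at 37.3 ± 2.64 CPM per kb, with every library above 34.0, whereas Pf4 ranged from 2.46 to 38.5 with a mean of 11.98. The remaining members stood at between 0.204 (Alox12) and 2.51 (Itga2b) CPM per kb on average at S3. The integrin αIIb transcript thus stood above that of its β3 partner per kilobase at both gates, in every WT library.

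**Figure D1:**
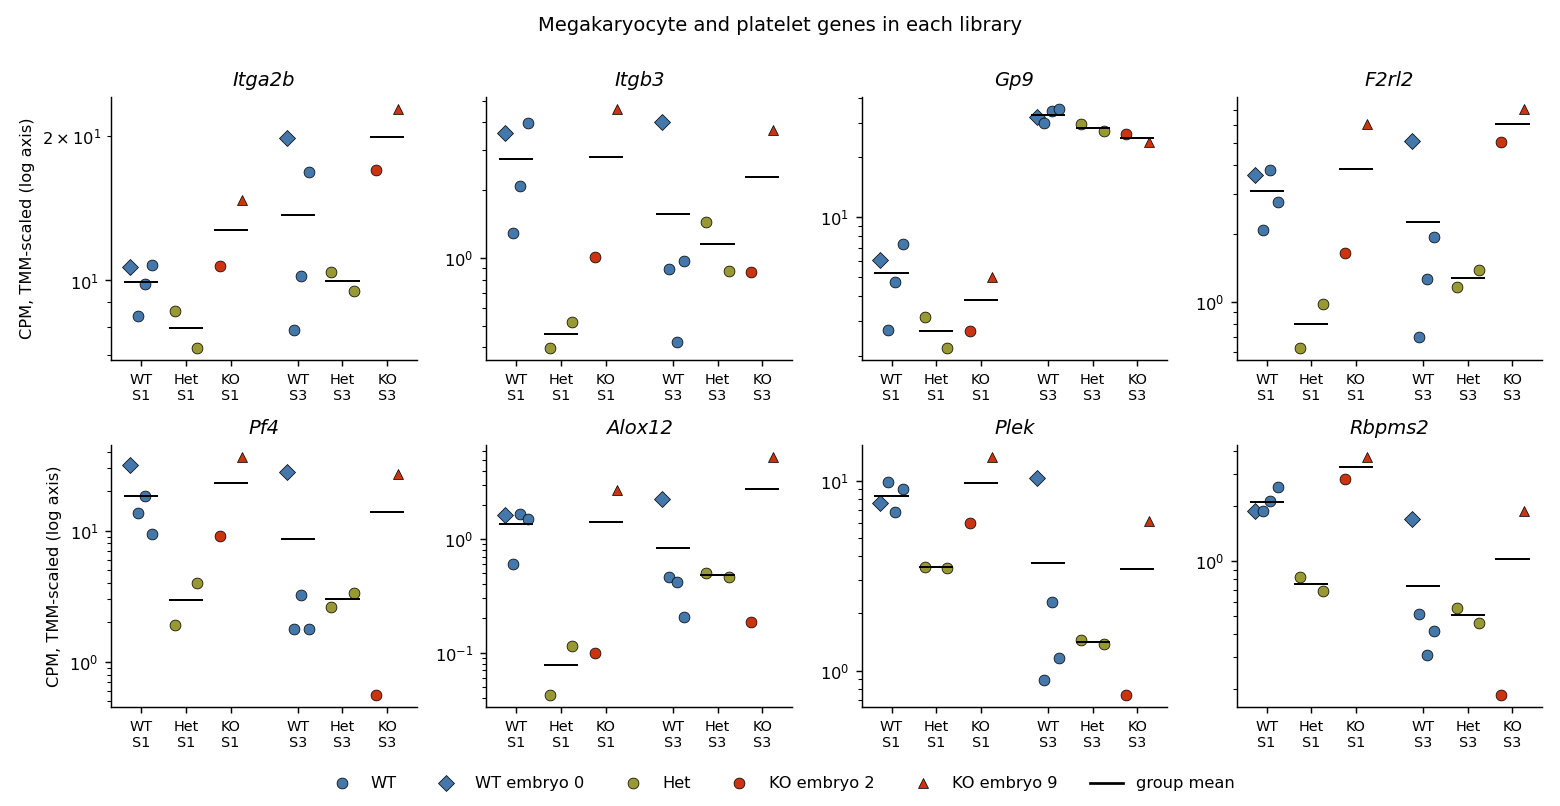
TMM-scaled CPM (log axis) of the 8 members with usable counts, 1 point per library, by genotype and gate; lines are group means, diamonds are WT embryo 0 and triangles KO embryo 9. At S3 the diamond and the triangle are the top points for every gene except Gp9, and at S1 the Het points are the lowest pair for 5 of the 8 genes.

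The fibrinogen receptor genes differed in how evenly they were spread. Itga2b (chromosome 11, 102344123 to 102360948, minus strand) encodes CD41. Its S1 levels were 10.6, 8.45, 9.83 and 10.7 CPM in WT embryos 0, 1, 5 and 8, 8.66 and 7.24 in Het embryos 3 and 4, and 10.7 and 14.7 in KO embryos 2 and 9. At S3 the same order of embryos gave 19.8, 7.90, 10.2 and 16.8 in WT, 10.4 and 9.52 in Het, and 16.95 and 22.7 in KO. Both KO libraries were in the upper part of the S3 range, but WT embryos 0 and 8 reached there too, and the groups overlapped. Itgb3 (chromosome 11, 104498826 to 104561302, plus strand) was at 3.59, 1.29, 2.09 and 3.99 CPM in WT, 0.397 and 0.517 in Het and 1.01 and 4.58 in KO at S1. At S3 it was at 4.01, 0.888, 0.422 and 0.965 in WT, 1.44 and 0.870 in Het, and 0.863 and 3.69 in KO. WT embryo 0 and KO embryo 9 stood apart from the other 6 S3 libraries, of which the highest was at 1.44 CPM.

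Gp9 (chromosome 6, 87755054 to 87756750, plus strand), which encodes a subunit required for surface display of the GPIb complex, was at 6.09, 2.698, 4.68 and 7.29 CPM in WT, 3.12 and 2.18 in Het, and 2.67 and 4.96 in KO at S1. At S3 it was at 32.1, 30.0, 34.3 and 35.1 in WT, 29.3 and 27.2 in Het, and 26.2 and 23.95 in KO. All 8 S3 libraries lay above all 8 S1 libraries. The S3 libraries differed among themselves by no more than 1.46-fold from lowest to highest.

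F2rl2 (chromosome 13, 95833361 to 95839247, plus strand) encodes PAR3, which acts as a cofactor for thrombin on mouse platelets. It was at 3.62, 2.07, 3.82 and 2.75 CPM in WT, 0.627 and 0.976 in Het, and 1.64 and 6.04 in KO at S1. At S3 it was at 5.11, 0.701, 1.26 and 1.93 in WT, 1.17 and 1.38 in Het, and 5.05 and 7.06 in KO. KO embryo 2 also stood with the high libraries at S3, next to WT embryo 0. The gene lies within the span of Iqgap2 on the opposite strand but shares no exonic base with it. The counting did not use strand, so a read from an Iqgap2 intron over an F2rl2 exon cannot be told from an F2rl2 read. Iqgap2 totalled 20500 counts over all libraries, and its part in the F2rl2 counts was not tested.

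Pf4 (chromosome 5, 90920294 to 90921242, plus strand), the α-granule chemokine, varied more than any other member with enough counts in its lowest library for a ratio. Its S1 levels were 31.6, 13.6, 18.5 and 9.49 CPM in WT, 1.90 and 3.99 in Het, and 9.10 and 36.7 in KO. Its S3 levels were 27.8, 1.78, 3.22 and 1.79 in WT, 2.61 and 3.38 in Het, and 0.555 and 27.0 in KO. The S3 libraries thus fell into 2 with high levels, from WT embryo 0 and KO embryo 9, and 6 at or below 3.38 CPM, over a 50.05-fold range. The same 2 embryos were also the highest at S1. The 2 KO embryos differed from each other 48.7-fold at S3 and 4.03-fold at S1.

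Alox12 (chromosome 11, 70132283 to 70146179, minus strand), the platelet-type 12-lipoxygenase, had the lowest mean level per kilobase in WT at both gates. It was at 1.62, 0.605, 1.65 and 1.52 CPM in WT, 0.0418 and 0.115 in Het, and 0.0982 and 2.72 in KO at S1. At S3 it was at 2.24, 0.467, 0.422 and 0.207 in WT, 0.500 and 0.461 in Het, and 0.185 and 5.35 in KO. The Het S1 values rest on 2 and 4 counts, and the values of KO embryo 2 on 4 counts at S1 and 3 at S3.

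Plek (chromosome 11, 16921206 to 17002381, minus strand) encodes pleckstrin, the main substrate of protein kinase C in platelets, and is also expressed in other leukocytes. It was at 7.62, 9.79, 6.85 and 9.04 CPM in WT, 3.51 and 3.48 in Het, and 5.96 and 13.4 in KO at S1. At S3 it was at 10.3, 0.888, 2.30 and 1.17 in WT, 1.44 and 1.38 in Het, and 0.740 and 6.15 in KO. At S3 WT embryo 0 and KO embryo 9 were again apart from the rest. Of the exonic bases of Plek, 4.44% overlap Cnrip1 on the opposite strand, which totalled 141 counts over all libraries.

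Rbpms2 (chromosome 9, 65536930 to 65567810, plus strand), an RNA-binding protein, was at 1.87, 1.87, 2.14 and 2.53 CPM in WT, 0.816 and 0.689 in Het, and 2.82 and 3.72 in KO at S1. At S3 it was at 1.69, 0.514, 0.307 and 0.414 in WT, 0.556 and 0.461 in Het, and 0.185 and 1.87 in KO. The S1 groups did not overlap, with Het lowest and KO highest. At S3 the same 2 libraries as for Pf4 were high.

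Taking the libraries of a gate together, WT embryo 0 and KO embryo 9 were the top 2 of the 8 S3 libraries for 7 of the 8 members, Gp9 being the exception. At S1, KO embryo 9 was the highest library for 7 of the 8 members, again except Gp9, and both Het libraries were the lowest 2 for 5 of the 8. These embryos carry different genotypes, so the high pair at S3 crosses the WT and KO groups.

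Lists of other cell types were summed in the same libraries. The stem and progenitor list (10 genes, some of which are also in the wider megakaryocyte list below) summed to 7.65 CPM in WT embryo 0 and 9.14 in KO embryo 9 at S3, against 0.801 to 2.34 in the other 6 libraries. The endothelial list (8 genes) summed to 28.0 and 15.7 CPM in these 2 libraries, against 3.58 to 11.03 in the other 6. The hepatoblast list (14 genes) was highest in WT embryo 0 at 1001 CPM, but KO embryo 9 at 259 lay within the range of the others, 102 to 593. The macrophage list (15 genes) was lowest in KO embryo 9, at 29.2 CPM against 43.7 to 124. No neutrophil list sum at S3 exceeded 19.9 CPM. The part of these cell types in the member levels was not tested.

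**Figure D2:**
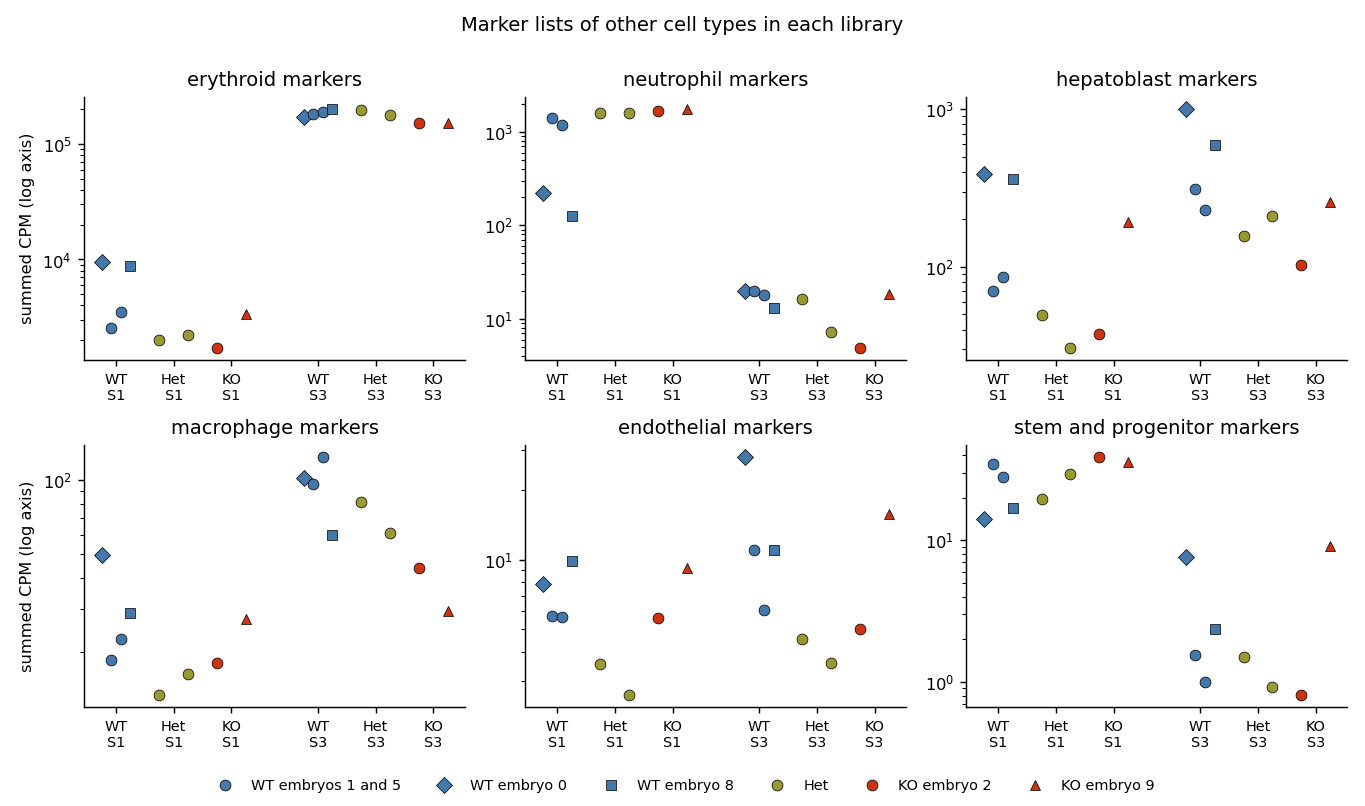
Summed CPM (log axis) of 6 marker lists in each library, by genotype and gate; diamonds are WT embryo 0, squares WT embryo 8 and triangles KO embryo 9. At S1 WT embryos 0 and 8 stand apart for erythroid, neutrophil and hepatoblast markers, and at S3 WT embryo 0 and KO embryo 9 are the top 2 for endothelial and for stem and progenitor markers.

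The first comparison asked whether loss of Nprl3 changed these genes in S3 erythroblasts. No member changed at an adjusted p under 0.05 (edgeR quasi-likelihood test, Benjamini-Hochberg over all 11804 genes tested), against 66 of all genes, or 0.559%. DESeq2 gave no p for Pf4 and called 0 of the other 7 members, against 2.19% of all genes. With edgeR, 1 member, F2rl2, had an unadjusted p under 0.05, against 8.52% of all genes. With DESeq2 F2rl2 and Gp9 did, against 1061 of the 11804 genes. The edgeR count of members was 5 without WT embryo 0 (814 of 11654 genes) and 1 without WT embryo 1 (1256 of 11791). It was 0 without WT embryo 5 (900 of 11687) and without WT embryo 8 (866 of 11948). The fitted log2 fold change of F2rl2 was 1.48 ± 0.63 (SE) with an edgeR adjusted p of 0.57. Alox12 was at 1.77 ± 1.06 (edgeR adjusted p = 0.74), Pf4 at 0.74 ± 1.31 (edgeR adjusted p = 0.95) and Itga2b at 0.59 ± 0.36 (edgeR adjusted p = 0.74). Itgb3 at 0.60 ± 0.85, Rbpms2 at 0.56 ± 0.89 and Plek at -0.02 ± 1.03 had errors larger than their estimates.

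Gp9 was the member whose KO and WT libraries did not overlap at S3, and KO was lower, as it was for 12.1% of all genes. Its log2 fold change was -0.33 ± 0.15 with an edgeR adjusted p of 0.60. The erythroid marker sum was also lower in both KO libraries at S3, at 153346 and 153562 CPM, than in every WT library, at 170895 to 201008, and so was the macrophage sum, at 29.2 and 43.7 against 59.8 to 124. Their part in the Gp9 difference was not tested. The median log2 fold change of the 8 members was 0.60, with 6 of 8 above 0, against a median of 0.01 over all genes tested. That median rested on single embryos: it was -1.37 without KO embryo 9, 1.34 without KO embryo 2, and 1.54 without WT embryo 0. Without both WT embryo 0 and KO embryo 9, 6 members passed the filter and their median was -0.02.

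F2rl2 kept a positive estimate in all 16 alternative fits, between 1.15 and 2.29. It passed the threshold with sex as a covariate (edgeR adjusted p = 0.042), a fit that called 2.41% of all genes higher, and with no filter on low counts (edgeR adjusted p = 0.047), which called 0.936% of all genes higher. With DESeq2 and sex, both F2rl2 (adjusted p = 0.0025) and Itga2b (adjusted p = 0.024) were called higher in KO, as were 2.61% of all genes. KO embryo 9 and WT embryo 0, the 2 highest S3 libraries for both genes, were male, as was WT embryo 8. The fits with sex thus do not separate sex from other traits of these embryos.

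**Figure D3:**
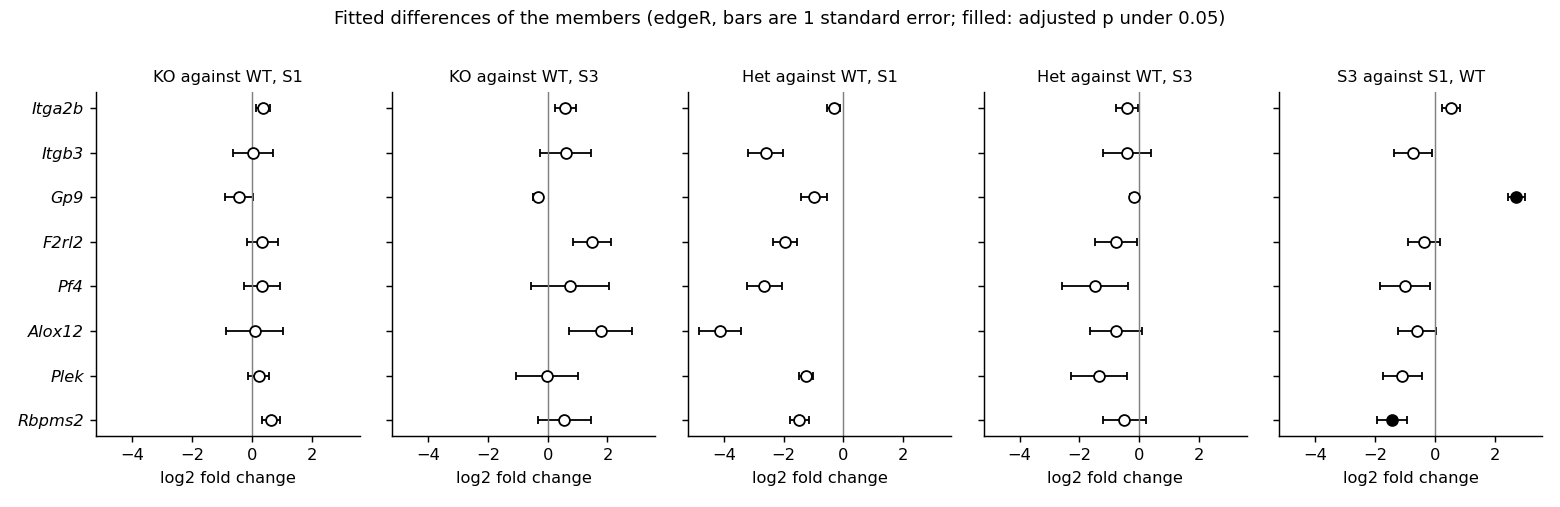
Fitted log2 fold changes of the 8 members in 5 comparisons (edgeR), with bars of 1 standard error; filled points have an adjusted p under 0.05. Only Gp9 and Rbpms2 in the comparison of gates are filled, and all 8 estimates of Het against WT at S1 lie below 0.

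At S1, KO against WT gave 0 calls among the 8 members with edgeR, against 1 of 14039 genes, or 0.00712%. There were also 0 members with DESeq2 (0.321% of all genes) and 0 at an unadjusted edgeR p under 0.05 (2.53% of all genes). Rbpms2 was the member whose groups did not overlap, with both KO libraries above all WT libraries, as for 6.17% of all genes. Its log2 fold change was 0.64 ± 0.29 with an edgeR adjusted p of 1.00. At S1 the neutrophil sum, at 1683 and 1756 CPM against 126 to 1423, the mast cell and basophil sum, at 86.5 and 118 against 8.49 to 57.9, and the stem and progenitor sum, at 35.6 and 38.9 against 14.1 to 34.6, were also higher in both KO libraries than in every WT library. Their part in the Rbpms2 difference was not tested. Estimates of the other members ran from -0.44 ± 0.46 for Gp9 to 0.37 ± 0.24 for Itga2b. The median over members was 0.29, and it became -0.94 without KO embryo 9. The difference between the KO effects at S3 and S1, fitted as an interaction, was called for 0 of 8 members with edgeR (0.00742% of all genes), with DESeq2 (0.089%), which gave no p for Plek, and with edgeR at an unadjusted p under 0.05 (3.11%). Its largest estimate was 1.70 ± 1.67 for Alox12.

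The heterozygous embryos were compared with the same WT libraries, so these values are not independent of those for KO. At S1 all 8 members had a log2 fold change below 0, and their median was -1.71. The S1 levels of Itgb3, F2rl2, Pf4, Alox12, Plek and Rbpms2 in both Het embryos lay below all 4 WT libraries, as was the case for 9.3% of all genes. With edgeR no member passed the adjusted threshold, and neither did any other of the 13818 genes (0% called). At an unadjusted p under 0.05 there were 6 members, all lower, against 3.97% of all genes that were lower. DESeq2 called these 6 members lower, against 0.217% of all genes.

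The largest of these differences was in Alox12, at -4.13 ± 0.71 on the log2 scale (edgeR adjusted p = 0.90, DESeq2 adjusted p = 0.00095). Pf4 was at -2.64 ± 0.58 (edgeR adjusted p = 0.90, DESeq2 adjusted p = 0.00095) and Itgb3 at -2.60 ± 0.58 (edgeR adjusted p = 0.90, DESeq2 adjusted p = 0.0064). Leaving out 1 embryo in turn, Alox12 ran from -4.93 to -3.54, Pf4 from -3.27 to -2.20 and Itgb3 from -2.84 to -2.36. F2rl2 was at -1.94 ± 0.40, Rbpms2 at -1.48 ± 0.32 and Plek at -1.25 ± 0.25. Gp9 at -0.98 ± 0.44 and Itga2b at -0.32 ± 0.22 were the members whose ranges overlapped with WT. With sex as a covariate, edgeR called Itgb3, F2rl2, Pf4, Alox12 and Plek lower, against 1.55% of all genes, and DESeq2 called 7 members lower, all but Itga2b, against 3.5%. Both Het embryos were male.

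Marker lists of other cells differed in both directions in the same S1 libraries. The endothelial sum was 2.58 and 3.53 CPM in Het against 5.68 to 9.88 in WT, the hepatoblast sum 30.5 and 49.1 against 70.3 to 388, and the macrophage sum 13.3 and 16.3 against 18.6 to 49.3. The erythroid sum was 1994 and 2196 CPM in Het against 2554 to 9532 in WT. The neutrophil sum was higher in both Het libraries, at 1602 and 1608 CPM, than in every WT library, at 126 to 1423. The mast cell and basophil sum was 48.9 and 68.5 CPM in Het against 8.49 to 57.9 in WT, and the stem and progenitor sum 19.4 and 29.2 against 14.1 to 34.6. WT embryos 0 and 8 held the 2 highest erythroid sums at S1, 9532 and 8844, and the 2 lowest neutrophil sums, 222 and 126 CPM. Without these 2 embryos the median of the members was -1.64, and 6 members had an unadjusted p under 0.05, all lower, against 4.17% of all genes. These are the only WT males, so that this fit sets 2 male Het embryos against 2 female WT embryos, and genotype and sex cannot be told apart in it. The part of cell composition in the Het difference was not tested.

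At S3 the Het libraries were within the WT range for every member except Gp9, which was lower in both, as were 12.5% of all genes. No member was called with edgeR (0% of 11746 genes) or with DESeq2 (0.00851% of all genes), which gave no p for Pf4, and with edgeR 0 members had an unadjusted p under 0.05, against 3.18% of all genes. All 8 estimates were below 0, from -1.48 ± 1.11 for Pf4 to -0.16 ± 0.14 for Gp9. Without WT embryo 0 their median moved from -0.63 to 0.02, over the 6 members then tested. With sex as a covariate Itga2b was called lower in Het (log2 fold change -0.85, edgeR adjusted p = 0.0099), and DESeq2 with sex, which gave no adjusted p for Itgb3, Alox12 and Rbpms2, called F2rl2 as well (adjusted p = 0.047). These fits called 9.25% and 8.32% of all genes lower. Both Het libraries also lay below every WT library at S3 for the hepatoblast sum, at 157 and 209 CPM against 229 to 1001, and for the endothelial sum, at 3.58 and 4.56 against 6.05 to 28.0. The part of these cells in the Het difference at S3 was not tested.

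The comparison of gates within WT followed the members from S1 to S3. Gp9 rose, with a log2 fold change of 2.72 ± 0.28 (edgeR adjusted p = 1.6e-05), in a comparison in which 30.6% of all 13514 genes rose and 35% fell. It was higher at S3 in 8 of 8 embryos of all genotypes, by 4.81-fold to 12.5-fold. Rbpms2 fell by 1.43 ± 0.50 on the log2 scale (edgeR adjusted p = 0.027) and was lower at S3 in 8 of 8 embryos. Gp9 and Rbpms2 were also the members whose WT libraries did not overlap between gates, as for 27.6% of all genes that were higher and 32.8% that were lower at S3.

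Marker lists of other cells differed between the same WT libraries. From S1 to S3 the neutrophil sum went from 126 to 1423 CPM down to 12.9 to 19.9, the mast cell and basophil sum from 8.49 to 57.9 down to 0 to 3.32, and the stem and progenitor sum from 14.1 to 34.6 down to 0.996 to 7.65. The macrophage sum went from 18.6 to 49.3 CPM up to 59.8 to 124, and the erythroid sum from 2554 to 9532 up to 170895 to 201008. The hepatoblast sum, at 70.3 to 388 CPM at S1 and 229 to 1001 at S3, and the endothelial sum, at 5.68 to 9.88 and 6.05 to 28.0, overlapped between the gates. The part of these cells in the differences between gates, of the members and of the wider list below, was not tested.

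Pf4 and Plek were lower at S3 in 7 of 8 embryos. In WT embryos 1, 5 and 8, Pf4 was 7.67-fold, 5.73-fold and 5.30-fold lower at S3 than at S1, and in WT embryo 0 it was 1.14-fold lower. Plek was 11.02-fold, 2.98-fold and 7.71-fold lower in WT embryos 1, 5 and 8 and 1.35-fold higher in WT embryo 0. In KO embryo 2 Pf4 was 16.4-fold lower, in KO embryo 9 1.36-fold lower. The unpaired log2 fold changes were -0.995 ± 0.83 for Pf4 (edgeR adjusted p = 0.31) and -1.09 ± 0.65 for Plek (edgeR adjusted p = 0.16). With the embryo as a replicate block, both were called, at -1.89 ± 0.43 for Pf4 (edgeR adjusted p = 0.0036) and -1.72 ± 0.59 for Plek (edgeR adjusted p = 0.026), so that 4 members passed. In that fit 33.3% of all genes rose and 36.3% fell. Without WT embryo 0, Itgb3 and Alox12 also fell and 6 members passed, against 25.8% of all genes that rose and 31.1% that fell. With WT embryo 1, 5 or 8 left out in turn, Gp9 alone passed each time, against 29.4%, 25.3% and 31.7% of all genes that rose. Without both WT embryos 0 and 8, an exclusion chosen after the data were seen, Gp9 rose and F2rl2, Pf4, Plek and Rbpms2 fell, against 28.9% of all genes that rose and 33.5% that fell.

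Itga2b was higher at S3 in 7 of 8 embryos, at a log2 fold change in WT of 0.54 ± 0.29 (edgeR adjusted p = 0.13). DESeq2 with sex as a covariate called it higher at S3, at 0.47 ± 0.22 (DESeq2 adjusted p = 0.045), as it did 34.1% of all genes. F2rl2 and Alox12 were each higher at S3 in 5 of 8 embryos and Itgb3 in 3 of 8. The fitted changes in WT were -0.36 ± 0.53 for F2rl2, -0.59 ± 0.65 for Alox12 and -0.72 ± 0.64 for Itgb3. F2rl2 was 3.07-fold higher at S3 in KO embryo 2, and in WT embryos 1, 5 and 8 it was 2.95-fold, 3.02-fold and 1.43-fold lower.

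**Figure D4:**
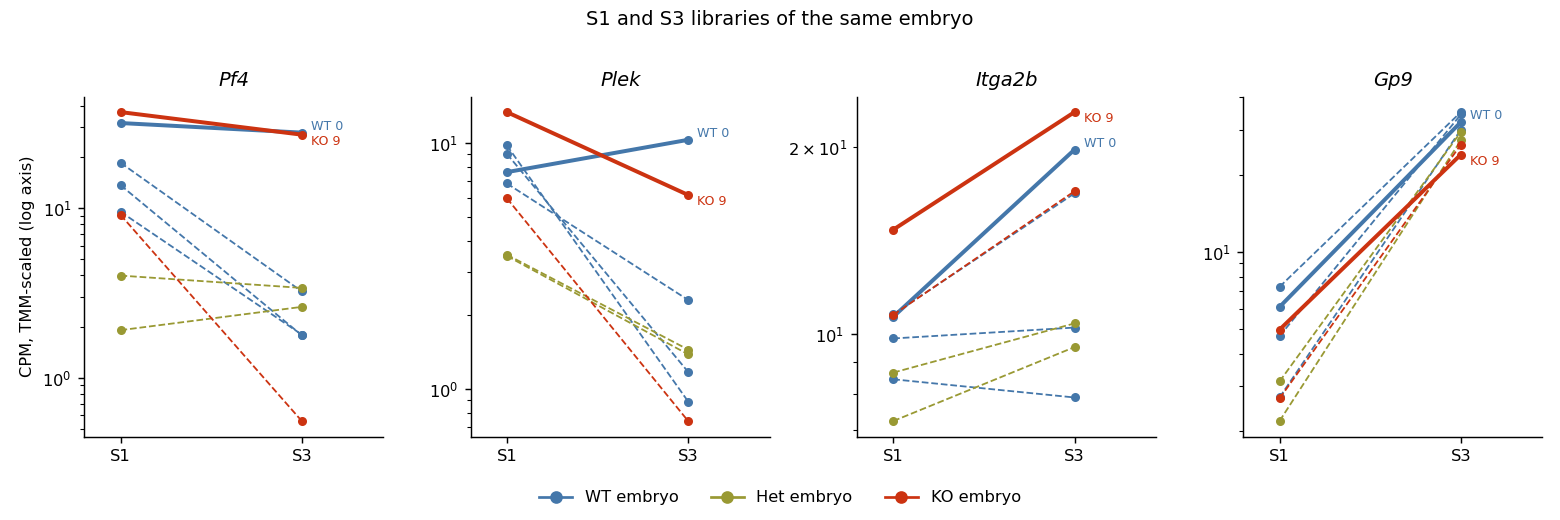
TMM-scaled CPM (log axis) of Pf4, Plek, Itga2b and Gp9 in the S1 and S3 libraries of each of the 8 embryos, joined by a line per embryo; thick lines are WT embryo 0 and KO embryo 9. Pf4 stays near its S1 level in these 2 embryos and in both Het embryos, and Gp9 is higher at S3 in all 8.

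How closely the members moved together was described by Pearson's r of log2(CPM + 1) over the 16 libraries after the mean of each genotype and gate group was subtracted. These libraries come in pairs from 8 embryos, and WT embryo 0 and KO embryo 9 carry much of the spread. Pf4 was closest to Alox12 (r = 0.91) and Plek (0.90), then Rbpms2 (0.85), Itgb3 (0.79), F2rl2 (0.76) and Itga2b (0.60). With Gp9 its r was 0.05. Among the 13402 genes with a mean normalised count above 10, the 5 genes outside the group with the highest r were Treml1, a receptor stored in platelet α-granules (r = 0.96), Timp3 (0.94), Ctla2a (0.93), Slc35d3, which is needed for platelet dense granules (0.93), and Arhgap31 (0.93). Without subtraction of group means they were Timp3 (0.95), Ly6g6f (0.91), Slc35d3 (0.89), Serpinb2 (0.89) and the α-granule protein gene Thbs1 (0.88). Ctla2a, Slc35d3, Arhgap31, Ly6g6f and Serpinb2 averaged only 0.33 to 0.68 CPM over the libraries, so their r rests on few counts. Treml1, Timp3 and Thbs1 are also in the wider list below.

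A wider list of 72 megakaryocyte and platelet genes, split into surface receptors, granule contents, signalling and cytoskeleton, and transcription factors, showed what else of the lineage was in these libraries. From S1 to S3 in WT, 60 of them were tested, of which 10 rose and 29 fell, beside the 30.6% and 35% of all genes given above. No surface receptor was called higher at S3 and 10 of the 14 tested were called lower, while 2 of the 14 had estimates above 0. Those called lower included the prostaglandin E receptor Ptger3 (from 10.7 ± 2.76 to 2.19 ± 0.930 CPM, SD, n = 4) and the laminin-binding integrin Itga6 (from 8.99 ± 3.10 to 0.632 ± 0.580). Another was Gp1ba (from 4.65 ± 1.02 to 0.882 ± 0.361), the chain of the GPIb complex that binds von Willebrand factor. Gp1ba therefore fell by 2.33 ± 0.36 on the log2 scale (edgeR adjusted p = 0.00024), whereas Gp9 of the same complex rose.

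Of 11 granule genes tested, 4 fell and 1 rose. Vwf rose from 5.43 ± 0.689 to 13.6 ± 2.24 CPM, and Tgfb1 (from 36.6 ± 2.95 to 18.8 ± 2.52) and the granule proteoglycan gene Srgn (from 95.8 ± 61.5 to 13.1 ± 3.88) fell. Of 22 signalling genes, 10 fell and 3 rose. Tubb1, the β1-tubulin of platelets, rose from 2.87 ± 1.16 to 43.6 ± 7.10 CPM and thromboxane synthase (Tbxas1) from 1.67 ± 0.933 to 44.1 ± 8.42, and the adaptor gene Fyb fell from 19.8 ± 5.12 to 2.95 ± 0.627. Of 13 transcription factor genes, 6 rose and 5 fell. Nfe2 rose from 110.6 ± 5.62 to 1866 ± 224 CPM and Gata1 from 323 ± 25.4 to 853 ± 70.2, and Etv6 fell from 13.1 ± 1.62 to 0.538 ± 0.225. Nfe2, Gata1 and Gfi1b are erythroid factors too.

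For KO against WT at S3, edgeR called none of the 53 wider genes tested, DESeq2 called 1 higher and 1 lower (2.19% of all genes), and 6 had an unadjusted edgeR p under 0.05 (8.52% of all genes). With sex as a covariate both tools called 2 wider genes higher and 1 lower, beside 2.41% and 2.22% of all genes with edgeR and 2.61% and 3.58% with DESeq2. With no filter on low counts 3 of 71 were called higher and 1 lower, beside 0.936% and 0.586% of all genes, and without WT embryo 5 edgeR called 1 higher, beside 0.342%. The smallest p among granule genes was that of Srgn, at 13.1 ± 3.88 CPM in WT (n = 4) and 31.8 ± 7.72 in KO (n = 2), with an edgeR adjusted p of 0.075. Ppbp, a chemokine of the same granules as Pf4, was at 0.345 to 3.68 CPM in WT and at 0.247 and 24.6 in KO, and Sparc at 4.14 to 11.6 in WT and 2.16 and 38.0 in KO. For both, 1 KO library was above and the other below the whole WT range.

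Among surface genes, Gp1ba was at 0.421 to 1.27 CPM in WT and 1.29 and 2.78 in KO (edgeR adjusted p = 0.50), followed by the thrombin receptor gene F2r (edgeR adjusted p = 0.74) and the tetraspanin gene Cd9 (edgeR adjusted p = 0.77). Among signalling genes, cyclooxygenase 1 (Ptgs1) was at 1.93 to 5.11 in WT and 0.678 and 1.497 in KO (edgeR adjusted p = 0.23), Rab27b was at 3.22 to 5.79 and 5.67 and 7.97 (edgeR adjusted p = 0.48), and Fyb was at 2.07 to 3.53 and 1.604 and 1.73 (edgeR adjusted p = 0.51). The transcription factor genes with the smallest p were Etv6 (edgeR adjusted p = 0.66), Nfe2 (edgeR adjusted p = 0.87) and Gfi1b (edgeR adjusted p = 0.88). For Het against WT at S1, edgeR called none of 61 wider genes and 11 had an unadjusted p under 0.05, all lower, against 3.97% of all genes. DESeq2 called 3 of the 61, all lower in Het, against 0.217% of all genes. With sex as a covariate the calls went both ways. DESeq2 then called 5 wider genes higher and 9 lower, against 2.4% and 3.5% of all genes, and edgeR called 3 higher and 5 lower, against 1.32% and 1.55%.

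For Het against WT at S3, 49 wider genes were tested. With sex as a covariate edgeR called 9 of them, all lower, beside 9.25% of all genes, and DESeq2 called 5 lower and 1 higher, beside 8.32% and 9.97%. With no filter on low counts 1 of 71 was called, lower in Het, beside 0.225% of all genes. For KO against WT at S1, DESeq2 with sex called 1 wider gene higher, beside 0.848% of all genes. For the difference between the KO effects at S3 and S1, 1 wider gene was called lower with DESeq2 (0.0519% of all genes) and 1 with DESeq2 and sex (0.104%).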

How the data were processed

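Raw counts per gene were deposited by the authors for 16 libraries. Per the study's methods and the file header, reads were aligned to mm39 with STAR 2.7.9 and counted per Ensembl gene with featureCounts 1.6.4, per the header without strand, and the counter's default leaves out multi-mapping reads and reads over more than 1 gene. RNA of the sorted cells was amplified before sequencing, so counts are not independent molecules.

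Of the 55416 genes, 54749 received a symbol from GENCODE M39, and 4 library columns that match no sample were not used. Groups came from the titles, in which the same embryo number names the S1 and S3 libraries of 1 embryo. The main test was edgeR 4.0.16 (quasi-likelihood, TMM, R 4.3.3) on the libraries of each comparison, for genes with a mean normalized count above 10, with Benjamini-Hochberg adjustment and a threshold of 0.05. DESeq2 1.42.0, sex as a covariate, other filters and scalings, the embryo as a replicate block, and leaving out embryos were alternatives. The edgeR and DESeq2 fits in their default settings were tested on simulated counts, and the other steps and alternatives were not. A permutation test of 2 against 4 libraries cannot give a p under 0.0667, so none was used.

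The members and lists were chosen with earlier results of these data known. Named genes were all members, the 3 genes with the smallest p in each part of the wider list at KO against WT at S3 and at S3 against S1, and the 5 genes most like Pf4. Deviations from group means correlated between the gates of an embryo at r = 0.03 to 0.45 in WT, 0.08 in Het and 0.59 in KO, over 13402 genes.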

Additional observations from a re-analysis of the deposited data

Results flagged for a closer look

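In WT at S3, embryo 0 lay far above the other 3 libraries for 5 members, by the gap to its nearest neighbour as a share of the range, tested against Dixon's limit for 4 samples. It was at 27.8 CPM for Pf4 against 1.78 to 3.22 in the others, 10.3 for Plek against 0.888 to 2.30, 4.01 for Itgb3 against 0.422 to 0.965, 2.24 for Alox12 against 0.207 to 0.467, and 1.69 for Rbpms2 against 0.307 to 0.514. In WT at S1, Alox12 was low in embryo 1, at 0.605 CPM against 1.52 to 1.65. The summed mast cell and basophil markers in WT at S3 were high in embryo 1, at 3.32 CPM against 0 to 0.254. In all, 7 of 30 groups tested passed the limit, and the 5 members share 1 library. The limit is set for about 1 false flag in 20 when values are normally distributed. It was applied here to CPM without a log, for members chosen with their counts known, so the number of flags is not a test.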

How the results depend on the processing

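Calls among the members changed with sex as a covariate, with the tool (Het against WT at S1) and with the filter on low counts (KO against WT at S3), and leaving out embryos changed them only for S3 against S1 in WT. Among values of single members over the alternatives run, 682 kept their direction and side of the threshold, 35 newly passed it, 3 no longer did, 37 reversed and 7 kept their direction without an adjusted p from DESeq2. The genes called over the whole table, 66 for KO against WT at S3, ran from 11 (without WT embryo 0, and also without WT embryo 8) to 730 (DESeq2 with sex). For KO against WT at S1 they ran from 0 to 171, for Het against WT at S3 from 0 to 2148, at S1 from 0 to 815, and for the KO effect at S3 minus S1 from 0 to 24, each highest with DESeq2 and sex. For KO against WT at S3, the members called numbered 2 with DESeq2 and sex, 1 with edgeR and sex and 1 with no filter, against 0, and the wider list 2 with DESeq2, 3 with DESeq2 and sex, 3 with edgeR and sex, 4 with no filter, and 0 to 1 leaving out 1 embryo. For KO against WT at S1 the wider list had 1 with DESeq2 and sex. For Het against WT at S3 the members called were 2 with DESeq2 and sex and 1 with edgeR and sex, and the wider list 6, 9 and, with no filter, 1. For Het against WT at S1 the members called were 6 with DESeq2, 7 with DESeq2 and sex and 5 with edgeR and sex, and the wider list 3, 14 and 8, all member calls being lower and the wider calls of both fits with sex going both ways. For the KO effect at S3 minus S1, the wider list had 1 with DESeq2 and 1 with DESeq2 and sex. The cause of these changes was not tested.

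For S3 against S1 in WT, 4 members passed with the replicate block (Gp9, Pf4, Plek and Rbpms2), 3 with DESeq2 and sex (Itga2b added), 1 to 6 leaving out 1 embryo, and 5 without WT embryos 0 and 8, an exclusion added after the data were seen, in which 28.9% of all genes were called higher and 33.5% lower. The replicate block changed no other call among the members. The genes called over the whole table split into 3643 higher and 5272 lower with upper-quartile scaling, against 4142 and 4728.

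Single genes that reversed did so at log2 fold changes short of the threshold. With DESeq2 and sex, Pf4 at KO against WT at S3 was -0.28, and at S1 Itgb3 was -0.18 and Alox12 -0.68; with edgeR and sex these were -0.17 for Itgb3 and -0.50 for Alox12. Without WT embryo 0 and KO embryo 9 (added after the data were seen), Pf4 was -1.99 at S3, and at S1 Itgb3 was -1.38, F2rl2 -0.87, Pf4 -0.65, Alox12 -3.71 and Plek -0.58, and the KO effect at S3 minus S1 was -1.41 for Pf4. Leaving out 1 or 2 embryos moved KO against WT at S3 between -0.82 and 1.68 for Itgb3, -3.90 and 2.66 for Pf4, -2.12 and 2.94 for Alox12, -2.27 and 1.29 for Plek, and -1.92 and 1.41 for Rbpms2. At S1 the ranges were -1.47 to 0.77 for Itgb3, -0.98 to 0.077 for Gp9, highest without WT embryos 0 and 8, -0.91 to 0.99 for F2rl2, -1.01 to 1.02 for Pf4, -3.76 to 1.01 for Alox12 and -0.58 to 0.69 for Plek. For Het against WT at S3 they were -0.78 to 0.70 for Itgb3, -1.08 to 0.057 for F2rl2 and -1.82 to 0.45 for Pf4, and for the KO effect at S3 minus S1 -0.31 to 0.64 for Gp9, -2.96 to 1.93 for Pf4, -1.84 to 1.12 for Plek and -2.40 to 0.84 for Rbpms2. Counts under 10 in a library, as for Alox12, limit precision.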
